A study of Mus musculus with 21 samples.

Results

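The breakdown of the branched-chain amino acids (BCAA) and its regulator KLF15 were followed through 10 genes of 55450 in the table of counts, and all 10 passed the filter on low counts. The genes were taken by name: the transcription factor Klf15, the transaminases Bcat1 and Bcat2, the branched-chain ketoacid dehydrogenase subunits Bckdha, Bckdhb and Dbt, the kinase and phosphatase of that enzyme, Bckdk and Ppm1k, and the later enzymes Ivd and Hibadh. Leucine, isoleucine and valine are first transaminated to branched-chain ketoacids, and the mitochondrial dehydrogenase complex then commits them to oxidation. The kinase BCKDK switches the complex off by phosphorylation and the phosphatase PPM1K switches it on again. KLF15 is a Krüppel-like factor of heart, liver and skeletal muscle that is known as an activator of amino acid breakdown genes and as a gene with a daily rhythm.

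Left ventricular RNA was measured in 21 male 129S6/SvEv mice, 1 library per mouse. Wild-type littermates (WT) or mice labelled Myh6+/R404Q, the myosin heavy chain mutation called R403Q in the study and a model of hypertrophic cardiomyopathy, received either a control diet (CD, 10% of kcal from lard and 0% sucrose) or this diet with the sodium-glucose cotransporter 2 inhibitor empagliflozin (EMPA, at 0.15 mg per g of feed). There were 5 WT-CD and 5 WT-EMPA mice, 7 R403Q-CD mice and 4 R403Q-EMPA mice. All had started the diets at 9 to 10 weeks of age. The sources differ on the duration, with an age of 12 weeks and 2 weeks of diet in one place and 16 weeks of diet in the sample labels. Each cage held mice of a single diet, so that cage and diet cannot be told apart, and p-values measure the spread between these mice.

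Libraries held between 23491535 and 43539684 counts, and 3 counts, taken as the floor, corresponded to at most 0.128 CPM, the unit in which counts are scaled to a common library size. The 10 genes had between 28 counts (the lowest of Bcat1) and 14667 counts (the highest of Ivd) in a mouse. The 7 cardiomyocyte markers (Myh6, Tnnt2, Ttn and others) summed to between 56872 and 100170 CPM, and Myh6 alone ran from 17530 to 54667 CPM. One library stood apart. In R403Q-CD replicate 2 the cardiomyocyte markers were at 56872 CPM, the lowest of all mice, the 8 fibroblast markers summed to 6001 CPM against 1076 to 3032 CPM elsewhere, and the 3 atrial markers that could be tested (Sln, Myl7 and Myl4) to 608 CPM against at most 260.3 CPM elsewhere. This mouse also had the lowest level of 9 of the 10 genes and the highest level of Bcat1, and the values that leaving it out moved most are given without it as well. In such tissue, fewer cells of a type and less RNA per cell cannot be told apart.

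RefSeq promoters were at hand for 9 of the 10 genes, with 12 start sites. The 250 bases before the start are shown for Klf15, the gene called on the control diet, and for Bckdhb, a dehydrogenase gene called there once 1 library is left out, so that their letters can be compared. Both stretches are from GRCm38.p6 and from the plus strand, chr6:90462326-90462575 for Klf15 and chr9:83924887-83925136 for Bckdhb, and both lie outside the transcript. Capitals mark the letters CACGTG (the E-box read by clock factors), GGGCGG (a GC box) and CACCC (a box read by Krüppel-like factors) on either strand. Each motif was searched separately, so that matches of different motifs may overlap.
Klf15: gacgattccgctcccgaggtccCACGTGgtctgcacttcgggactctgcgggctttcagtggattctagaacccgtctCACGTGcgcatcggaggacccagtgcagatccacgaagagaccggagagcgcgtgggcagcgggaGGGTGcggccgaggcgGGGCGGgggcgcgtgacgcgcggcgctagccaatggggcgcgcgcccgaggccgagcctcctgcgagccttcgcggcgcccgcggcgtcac
Bckdhb: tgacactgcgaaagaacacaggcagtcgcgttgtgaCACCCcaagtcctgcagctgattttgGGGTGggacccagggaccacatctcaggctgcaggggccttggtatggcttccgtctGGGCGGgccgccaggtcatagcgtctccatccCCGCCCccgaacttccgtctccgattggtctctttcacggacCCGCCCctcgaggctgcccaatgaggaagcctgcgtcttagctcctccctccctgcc
The Klf15 stretch held CACGTG at 2 places, beginning 228 and 172 bases before the start, and another match began 3 bases before the start and ran into the transcript. Of 32851 promoters of this length, 6.02% held CACGTG at least once, and among the 12 start sites of these 9 genes only that of Klf15 did. GGGCGG lay in 4 of the 12 stretches (32.7% of all promoters), 3 times in Bckdhb, and CACCC in 8 of the 12 (52% of all promoters). These are matches of letters and say nothing of binding.

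Per kilobase of exon, Bckdha was the most abundant of the 10 transcripts in WT-CD hearts and Bcat1 was close to absent. The E1α subunit gene Bckdha stood at 163 ± 5.23 CPM per kilobase (SD, n = 5), above every value of Ivd (69.1 ± 4.35), the isovaleryl-CoA dehydrogenase of leucine breakdown. Bcat2, the mitochondrial transaminase, followed at 52.5 ± 2.93, Klf15 at 49.2 ± 2.45, Ppm1k at 42.1 ± 1.77, Bckdhb at 40.5 ± 1.78 and Dbt at 36.7 ± 2.82 CPM per kilobase. In that order the values of Bcat2 and Klf15, of Ppm1k and Bckdhb, and of Bckdhb and Dbt overlapped between mice. Bckdk (30.3 ± 0.809) and Hibadh (27.5 ± 1.66), the dehydrogenase of valine breakdown, also overlapped, and Bcat1, the cytosolic transaminase, came last at 0.225 ± 0.0653 CPM per kilobase. Per length, E1α transcripts were 4.02 ± 0.217 times those of the E1β subunit gene Bckdhb and 4.45 ± 0.195 times those of the E2 core gene Dbt in WT-CD, while Bckdhb stood at 1.11 ± 0.088 times Dbt. Exons of Bckdha share 1171 of 1899 bases with B3gnt8 on the other strand, and the methods describe the counted pairs as of the same strand without saying whether the libraries kept strand, so that the level of Bckdha is uncertain. Shorter overlaps touch Bcat1 (337 bases), Bcat2 (622 bases) and Hibadh (122 bases).

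**Figure D1:**
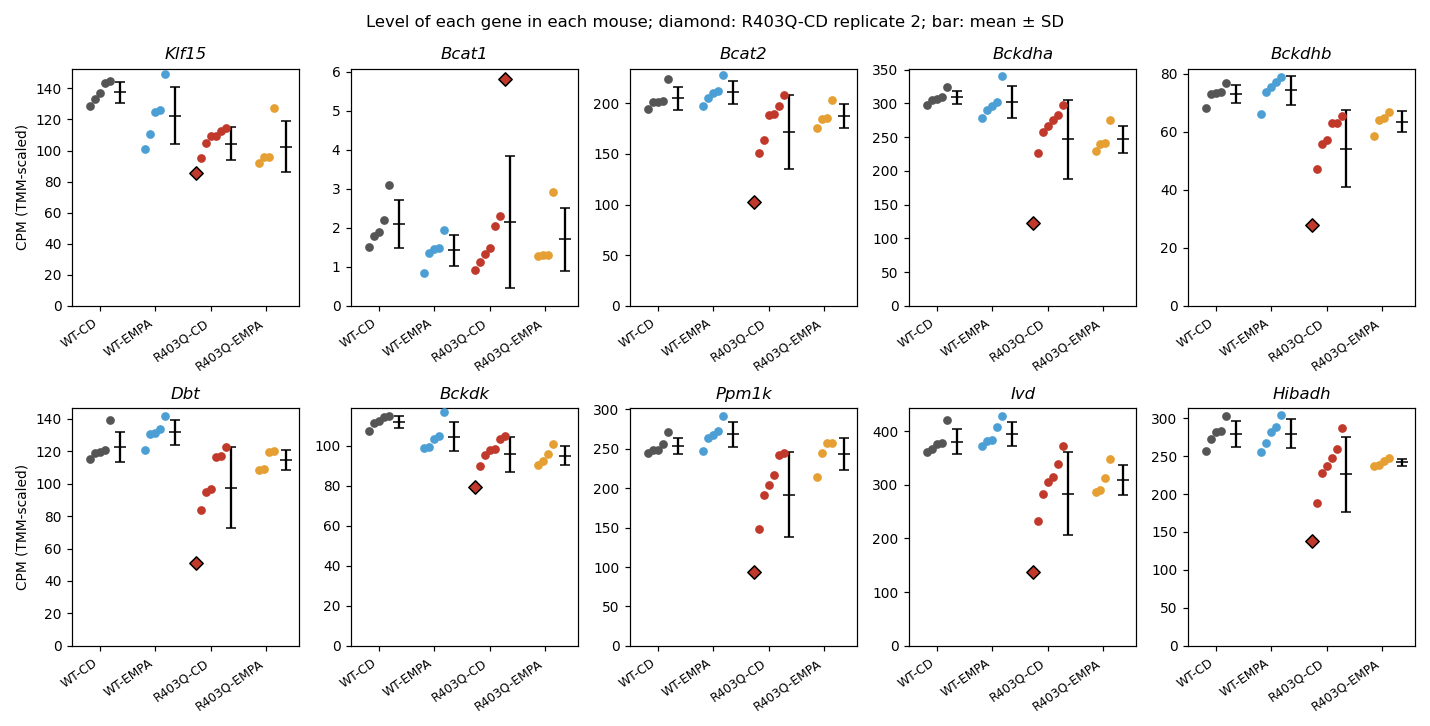
CPM (TMM-scaled, linear axes from 0) of the 10 genes in each of the 21 mice, grouped by genotype and diet, with the mean ± SD beside each group. For Klf15 all 7 R403Q-CD mice lie at or below 114 CPM and all 5 WT-CD mice at or above 128.6 CPM, and the diamond, R403Q-CD replicate 2, is the lowest point in every panel but that of Bcat1.

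The first question was whether R403Q hearts differed from WT hearts on the control diet. Klf15 fell by 23.9% in R403Q-CD, and it was the only one of the 10 genes past the adjusted threshold. Its levels were 128.6, 133, 137, 143 and 145 CPM in the WT-CD mice. In R403Q-CD they ran from 85.9 over a median of 109 to 114 CPM, so that the groups did not overlap. The log2 fold change was −0.39 (SE 0.085, 95% CI −0.57 to −0.22, adjusted p = 0.0459, edgeR quasi-likelihood F test over 17025 genes). It was −0.35 (adjusted p = 0.0364) without R403Q-CD replicate 2. The call sat close to the threshold and was lost with scaling to library size alone (adjusted p = 0.0503), with cage as a factor (adjusted p = 0.0602, where 0.115% of all genes were called) and in 13 of 16 fits that left out a mouse. In these 13 fits between 14 and 88 of all genes were called, against 98 with all mice and 147 with library size alone. Over the 16 fits the log2 fold change of Klf15 lay between −0.42 and −0.35.

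Among the transaminases, Bcat2 did not pass in R403Q-CD against WT-CD. Bcat2, which carries out the first step in mitochondria, stood at 195, 201, 201, 202 and 224 CPM in WT-CD. In R403Q-CD it ranged from 103 to 208 CPM with a median of 189 CPM, and the groups overlapped (log2 fold change −0.25, SE 0.126, adjusted p = 0.272, and −0.16 without R403Q-CD replicate 2). Bcat1 lay between 1.5 and 3.09 CPM in WT-CD and between 0.908 and 5.82 CPM in R403Q-CD. Its log2 fold change of 0.05 (SE 0.392) turned to −0.45 (SE 0.274, adjusted p = 0.444) without R403Q-CD replicate 2, so no direction can be read for it.

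All 3 dehydrogenase subunit genes had lower means in R403Q-CD hearts at an unadjusted p under 0.05, and none passed adjustment. Bckdhb, the E1β subunit gene, was at 68.1, 73.2, 73.5, 73.8 and 77 CPM in WT-CD and between 27.9 and 65.4 CPM (median 57.2 CPM) in R403Q-CD, with every mutant below every WT mouse. Its log2 fold change was −0.43 (SE 0.145, unadjusted p = 0.0085, adjusted p = 0.133). Without R403Q-CD replicate 2 the fold change of Bckdhb was −0.32 (SE 0.0726, adjusted p = 0.0449), past the threshold. Bckdha did not overlap either, by a narrow margin, at 298 to 325 CPM in WT-CD and 123 to 297 CPM in R403Q-CD (log2 fold change −0.32, SE 0.149, adjusted p = 0.241). Dbt, which carries the E2 acyltransferase, ran from 115 to 139 CPM in WT-CD and from 51.4 to 122 CPM in R403Q-CD, with overlap (−0.33, SE 0.15, adjusted p = 0.235). The folds without R403Q-CD replicate 2 were −0.21 for Bckdha (adjusted p = 0.134) and −0.22 for Dbt (adjusted p = 0.217).

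The kinase and the phosphatase of the complex both had lower means in R403Q-CD at an unadjusted p under 0.05, and neither passed adjustment with edgeR. Bckdk was at 107, 111, 112, 114 and 115 CPM in WT-CD and between 79.2 and 104.7 CPM (median 97.9 CPM) in R403Q-CD, without overlap. Its log2 fold change was −0.23 (SE 0.0622, unadjusted p = 0.00193, adjusted p = 0.0862 with edgeR), and DESeq2 called it (adjusted p = 0.0215). Ppm1k ranged from 245 to 271 CPM in WT-CD and from 94.3 to 244 CPM (median 204 CPM) in R403Q-CD, without overlap by a narrow margin (log2 fold change −0.40, SE 0.167, adjusted p = 0.202). Leaving out R403Q-CD replicate 2 gave −0.19 for Bckdk (adjusted p = 0.0765) and −0.29 for Ppm1k (adjusted p = 0.162). The spread within R403Q-CD was wider for the phosphatase (SD 54 CPM) than for the kinase (SD 8.71 CPM), and without R403Q-CD replicate 2 these were 35.7 and 5.37 CPM. As a ratio per kilobase, Bckdk to Ppm1k lay between 0.685 and 0.741 in WT-CD and between 0.636 and 1.37 in R403Q-CD, the highest being R403Q-CD replicate 2. On the EMPA diet it lay between 0.59 and 0.653 in WT, below every WT-CD mouse, and between 0.608 and 0.689 in R403Q. These ratios are a description without a test.

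Both enzymes further down, Ivd for leucine and Hibadh for valine, were also lower in mean at an unadjusted p under 0.05 and did not pass adjustment. Ivd was at 360 to 421 CPM in WT-CD and at 138 to 373 CPM (median 306 CPM) in R403Q-CD, and the difference was −0.42 on the log2 scale (SE 0.166, adjusted p = 0.182). Hibadh ranged from 256 to 303 CPM in WT-CD and from 138 to 286 CPM (median 237 CPM) in R403Q-CD (log2 fold change −0.31, SE 0.126, adjusted p = 0.203). R403Q-CD mice reached into the WT-CD range for both, and the folds were −0.30 for Ivd and −0.21 for Hibadh without R403Q-CD replicate 2.

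Counted together, 9 of the 10 genes had a lower mean in R403Q-CD, where 47.5% of all tested genes did. At an unadjusted p under 0.05, 8 were lower, against a background of 8.45% of genes lower and 19.6% in either direction. At an adjusted p under 0.05, 1 of 10 was called with edgeR, against 0.576% of genes, and 2 with DESeq2 (Klf15 and Bckdk), against 4.77%. The median log2 fold change of the 10 genes was −0.33 and that of all genes 0.01. In 5 of the 10 (Klf15, Bckdha, Bckdhb, Bckdk and Ppm1k) every R403Q-CD mouse lay below every WT-CD mouse in CPM, as did 1.01% of 17309 genes, with the highest R403Q-CD and lowest WT-CD values of Ppm1k only 244.4 and 244.5 CPM. On the deposited variance-stabilised values, an alternative chosen after seeing the data, Bckdha overlapped and 4 of the 10 did not (0.959% of genes). Without R403Q-CD replicate 2 the median was −0.25, all 10 means were lower, 9 were past the unadjusted level (background 16.6%) and 2 were called (background 1.05%).

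**Figure D2:**
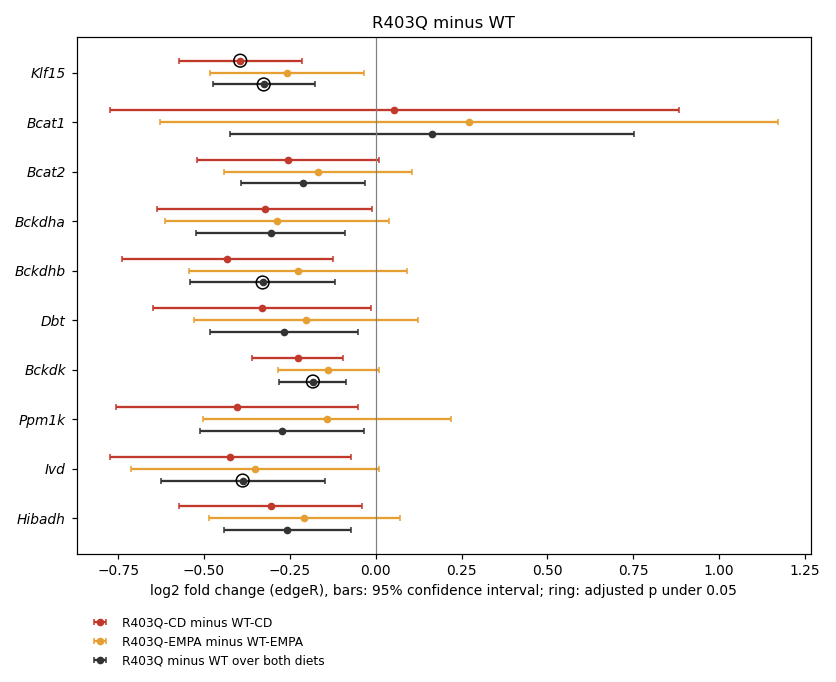
Log2 fold changes of R403Q minus WT for the 10 genes on CD, on EMPA and over both diets (edgeR, points, with 95% confidence intervals as bars), where a ring marks an adjusted p under 0.05. For 9 genes all 3 estimates lie below 0, and Bcat1 has an interval that spans 0 in each.

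Over both diets, with the 4 groups in a single fit of 17309 genes, 4 of the 10 genes fell in R403Q hearts. Klf15 fell by 20.2% (log2 fold change −0.33, SE 0.0716, adjusted p = 0.00937) and Bckdk fell by 11.9% (−0.18, SE 0.0469, adjusted p = 0.0188). Ivd fell by 23.6% (−0.39, SE 0.115, adjusted p = 0.0352) and Bckdhb fell by 20.4% (−0.33, SE 0.101, adjusted p = 0.0418). The background for this call was 10.9% of genes, and 4.58% for a call in the lower direction. Bckdha (−0.31, adjusted p = 0.0591), Hibadh (−0.26, adjusted p = 0.0623), Dbt (−0.27, adjusted p = 0.0936), Bcat2 (−0.21, adjusted p = 0.113) and Ppm1k (−0.27, adjusted p = 0.12) passed the unadjusted level only, so that 9 of the 10 were lower at that level against a background of 13%. DESeq2 called 6 of the 10 (also Bckdha and Hibadh), against 16% of genes. Without R403Q-CD replicate 2 the folds of these 9 genes were smaller in size, from −0.17 for Bcat2 and Bckdk to −0.33 for Ivd, and 9 of the 10 were called (all but Bcat1), against a background of 12.6%. Leaving out other single mice gave between 2 and 6 calls, with Klf15 and Bckdk among them each time, while the share of all genes called ran from 5.46% without R403Q-EMPA replicate 1 (2 calls among the 10) to 15.9% without R403Q-CD replicate 3 (6 calls).

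Both genotypes lived in 6 of the 7 cages, which allows a comparison within cages. For each of the 9 genes other than Bcat1, the R403Q mice of a cage had a lower mean log2 CPM than the WT mice of that cage in all 6 cages, 4 on CD and 2 on EMPA, as did 10.1% of all genes. For Klf15 the within-cage differences were −0.41, −0.65, −0.23 and −0.44 on CD and −0.21 and −0.22 on EMPA, where −0.65 came from the cage of R403Q-CD replicate 2. With cage as a factor over both diets, 3 of the 10 genes were called (Klf15, Ivd and Hibadh), against a background of 5.45%.

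On the EMPA diet alone, R403Q and WT hearts did not differ in any of the 10 genes at the adjusted threshold. The mean was lower in R403Q-EMPA for 9 of 10 genes (48.3% of all genes). Klf15 lay at 91.7, 95.6, 95.7 and 127 CPM in R403Q-EMPA against 101 to 150 CPM in WT-EMPA, with overlap from a single mutant mouse (log2 fold change −0.26, SE 0.108, unadjusted p = 0.0266, adjusted p = 0.271). It was the only one of the 10 at an unadjusted p under 0.05 (background 14.7%) in the fit of 4 groups, and edgeR and DESeq2 both called 0 (background 0.0578% with edgeR and 1.78% with DESeq2). With R403Q-CD replicate 2 out of the shared fit, 8 of the 10 were at an unadjusted p under 0.05 (background 19.1%) and again 0 were called (background 1.17%), the lowest adjusted p being 0.0576 for Bckdha. With cage as a factor Klf15 did not pass the unadjusted level (edgeR adjusted p = 0.554), whereas Ivd, Hibadh, Bckdhb, Bckdha and Dbt did, 5 of the 10 (background 12.9%), and 0 were called (background 0.0361%). A fit of the 2 EMPA groups alone gave 7 of the 10 at the unadjusted level (background 19%) and 0 calls (background 0.739%). For Bckdha, Dbt, Ivd and Hibadh every R403Q-EMPA mouse lay below every WT-EMPA mouse, 4 of 10 genes where 3.41% of all genes did so, and the same 4 on the variance-stabilised values (3.7%).

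Markers of other cell types also differed between the genotypes. Of all genes 19.6% were at an unadjusted p under 0.05 and 0.576% were called on the control diet, and 10.9% were called over both diets. In R403Q-CD against WT-CD all 8 fibroblast markers had higher means (6 at an unadjusted p under 0.05, 0 adjusted, median log2 fold change 0.93), summing to 1220 to 2029 CPM in WT-CD and 1623 to 6001 CPM in R403Q-CD. All 6 macrophage and leukocyte markers were higher (6 unadjusted, 2 adjusted, Ptprc and Csf1r), summing to 144 to 201 CPM in WT-CD and 202 to 353 CPM in R403Q-CD. Of 7 cardiomyocyte markers 5 had lower means (2 unadjusted, 0 adjusted, median −0.11). Of 10 mitochondrial reference genes such as Cs 9 did (5 unadjusted, 0 adjusted, median −0.21), the sum of the latter running from 19582 to 22457 CPM in WT-CD and from 11912 to 20928 CPM in R403Q-CD. Over both diets all 6 macrophage and leukocyte markers rose in R403Q hearts (median 0.63), and 2 of the 8 fibroblast markers (all 8 higher at an unadjusted p under 0.05, median 0.79) and 1 of 6 endothelial markers (3 unadjusted, median 0.19) were called higher, while 1 cardiomyocyte marker and 1 mitochondrial gene were called lower. The calls over both diets without R403Q-CD replicate 2 were 6 macrophage and leukocyte, 3 fibroblast, 1 endothelial, 1 cardiomyocyte and 2 mitochondrial genes, where 12.6% of all genes were called. No defining marker of these lists was at 0 in all mice. On the control diet without R403Q-CD replicate 2 the median of the 10 BCAA genes was −0.25 and that of the mitochondrial genes −0.13, with the cardiomyocyte median at −0.062, the fibroblast median at 0.40 (3 of 8 at the unadjusted level) and the macrophage median at 0.43 (6 of 6, against 16.6% of all genes). The part of these markers in the values of the BCAA genes was not tested.

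The next question was whether EMPA moved these genes in R403Q hearts, and none of the 10 passed. Comparing R403Q-EMPA with R403Q-CD, edgeR and DESeq2 called 0 of 10 genes, where 0% of all genes were called with edgeR and 0.767% with DESeq2. At an unadjusted p under 0.05 there were also 0 of 10, against 12.5% of 17025 genes. The lowest p belonged to Ppm1k, at 214, 244.5, 257 and 258 CPM in R403Q-EMPA and 94.3 to 244.4 CPM in R403Q-CD, where 1 treated mouse lay within the range of the untreated group and the other 3 above it, 1 of them by a narrow margin (log2 fold change 0.34, SE 0.178, 95% CI −0.03 to 0.72, unadjusted p = 0.0698, adjusted p = 0.442). Leaving out R403Q-CD replicate 2 gave 0.23 for Ppm1k (unadjusted p = 0.0481, adjusted p = 0.424). For Klf15, 3 of 4 R403Q-EMPA mice were at or below 95.7 CPM, within the R403Q-CD range, and the fourth at 127 CPM lay above that range and below every WT-CD mouse. Its log2 fold change was −0.03 (95% CI −0.22 to 0.17, adjusted p = 0.929).

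The width of the intervals differed between the genes. For Bckdk, the gene with the narrowest interval, the change with EMPA in R403Q hearts lay between −0.15 and 0.13 on the log2 scale (estimate −0.01). For Bckdhb (0.23, −0.10 to 0.56), Dbt (0.23, −0.11 to 0.57), Bcat2 (0.13, −0.16 to 0.41), Ivd (0.13, −0.25 to 0.50) and Hibadh (0.10, −0.19 to 0.38) the intervals held both 0 and an increase as large as the decrease estimated for R403Q-CD against WT-CD. For Bckdha the estimate was 0.00 (−0.34 to 0.34), and for Bcat1 −0.34 (−1.25 to 0.56). Leaving out R403Q-CD replicate 2 lowered the estimates to 0.12 for Bckdhb and Dbt, 0.034 for Bcat2, 0.0064 for Ivd, 0.007 for Hibadh, −0.11 for Bckdha, −0.05 for Bckdk and −0.07 for Klf15, and raised that of Bcat1 to 0.16. The lowest unadjusted p without it was again that of Ppm1k.

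**Figure D3:**
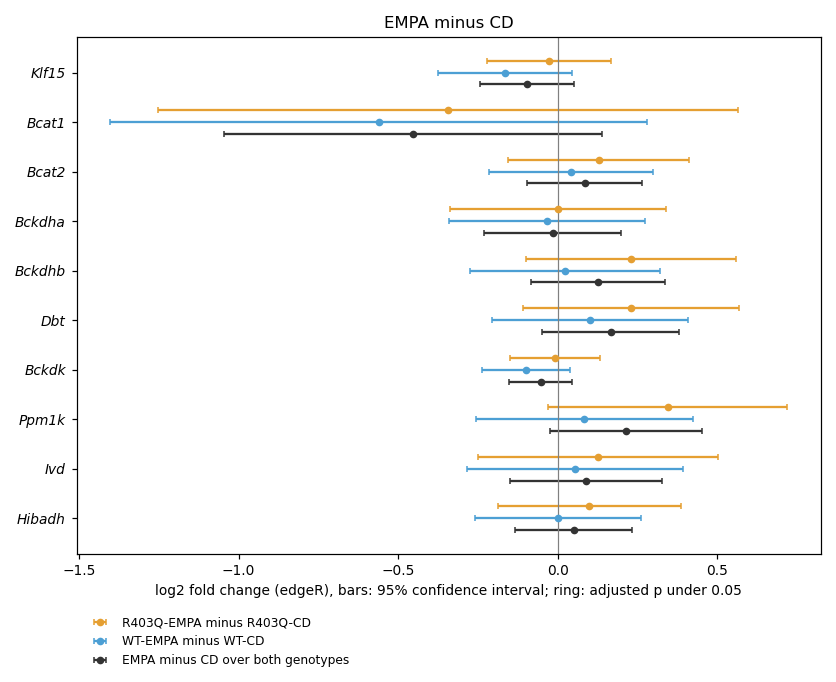
Log2 fold changes of EMPA minus CD for the 10 genes in R403Q mice, in WT mice and over both genotypes (edgeR, points, with 95% confidence intervals as bars). Every interval spans 0 and no ring is drawn, since no adjusted p was under 0.05.

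In WT hearts and over both genotypes 0 of the 10 genes passed either. WT-EMPA against WT-CD gave 0 calls among the 10 with edgeR and with DESeq2 and 0 at an unadjusted p under 0.05 (background 11% unadjusted, 0.0289% adjusted with edgeR and 0.737% with DESeq2). Klf15 in WT-EMPA spread from 101 to 150 CPM, wider than the 129 to 145 CPM of WT-CD, and differed in mean by −0.17 on the log2 scale (SE 0.101, adjusted p = 0.569). Over both genotypes the folds ran from −0.45 for Bcat1 to 0.21 for Ppm1k (SE 0.115, unadjusted p = 0.0769, adjusted p = 0.308), and 0 of 10 were called with either tool or at an unadjusted p under 0.05, where 2.91% of all genes were called with edgeR, 5.88% with DESeq2 and 20.1% passed the unadjusted level. The difference of the EMPA effect between genotypes was tested as an interaction, and its estimates for the 10 genes lay between 0.04 and 0.26 on the log2 scale, with an adjusted p of 0.999 for each and 0 calls with edgeR or DESeq2 (0% of all genes with each, with 0 of the 10 and 3.28% of all genes at an unadjusted p under 0.05). Of 5 erythroid markers 4 rose with EMPA over both genotypes, summing to 706 to 1717 CPM on CD and 1214 to 2660 CPM on EMPA. All 3 atrial markers tested had lower means with EMPA in R403Q hearts at an unadjusted p under 0.05 (0 adjusted), summing to 3.22 to 608 CPM in R403Q-CD and 2.70 to 34.8 CPM in R403Q-EMPA. Their median log2 fold change was −3.40, and it was −2.07 with 0 of the 3 at that level without R403Q-CD replicate 2. All 5 smooth muscle and pericyte markers had lower means with EMPA in R403Q hearts (median −0.71) and over both genotypes (−0.55). In each comparison 2 were at an unadjusted p under 0.05 (12.5% and 20.1% of all genes) and edgeR called 0. In R403Q hearts 7 of 8 fibroblast markers were lower and 1 higher, with 0 at that level (median −0.49, and −0.12 without R403Q-CD replicate 2). Over both genotypes edgeR called 1 of 6 endothelial markers higher. The part of these markers in the values above was not tested. The interaction estimates without R403Q-CD replicate 2 ran from −0.083 for Bckdha to 0.72 for Bcat1, and over both genotypes Ppm1k was at 0.15 (unadjusted p = 0.0388, adjusted p = 0.212).

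Beyond the 10, 25 further genes of BCAA handling were listed: transporters, the shared E3 subunit gene Dld, and the enzymes of the leucine, isoleucine, valine and propionate branches. In R403Q-CD against WT-CD 20 of 25 had a lower mean (47.5% of all genes), 8 at an unadjusted p under 0.05 in the lower direction (8.45%), 0 adjusted with edgeR (0.576%) and 1 with DESeq2 (4.77%), with a median of −0.20. The list medians were closer to 0 without R403Q-CD replicate 2, moving from −0.31 to −0.20 for leucine, from −0.19 to −0.11 for isoleucine, from −0.18 to −0.11 for valine and from −0.28 to −0.18 for propionate. Among the leucine genes, Mccc2, the β subunit gene of methylcrotonyl-CoA carboxylase, was at −0.45 (SE 0.148, adjusted p = 0.129), Mccc1 at −0.32 and Auh at −0.30. Of the propionate genes, which take up the products of isoleucine and valine, 5 of 6 were lower, led by Pccb at −0.34 (SE 0.102, adjusted p = 0.102), Pcca at −0.35 and the mutase gene (listed as Mut) at −0.31. The isoleucine genes were Acadsb (−0.22), Echs1 (−0.26), Acat1 (−0.16) and Hsd17b10 (−0.07), and those of valine Aldh6a1 (−0.30), Abat (−0.27), Acad8 (−0.09) and Hibch (−0.01). Dld stood at −0.20 (adjusted p = 0.393).

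Transport genes were split in direction. Of 6 genes 2 were lower and 4 higher in R403Q-CD, with a median of 0.05 and 0 at an unadjusted p under 0.05 (19.6% of all genes), and 3 were lower and 3 higher without R403Q-CD replicate 2 (median −0.0028, 1 unadjusted, against 16.6% of all genes). Over both diets they were also split 3 and 3, with 2 lower at an unadjusted p under 0.05 (13% of all genes). Slc25a44, the mitochondrial BCAA carrier, was at −0.11 and Slc43a2 at −0.20, while Slc7a5, the light chain of a plasma membrane carrier, was at 0.28 (SE 0.192, adjusted p = 0.435). Over both diets 4 of the 25 genes fell in R403Q hearts (4.58% of all genes), named here because they passed: Pccb (−0.30, adjusted p = 0.0149), Pcca (−0.30, adjusted p = 0.0245), Mccc2 (−0.37, adjusted p = 0.0284) and Acadsb (−0.22, adjusted p = 0.0332). Without R403Q-CD replicate 2, 3 leucine, 1 isoleucine, 1 valine and 3 propionate genes were called in that comparison (12.6% of all genes). With EMPA in R403Q hearts 19 of 25 had a higher mean (49.2% of all genes), 2 at an unadjusted p under 0.05 (12.5%), Slc43a2 (0.25, adjusted p = 0.379) and Mmaa (0.19, adjusted p = 0.349), and 0 were called by either tool. Other transport genes were Slc7a5 (−0.36) and Slc3a2 (−0.12, its heavy chain partner), and other propionate genes Mut (0.18) and Mcee (0.15). The leucine genes Auh (0.14), Mccc2 (0.14) and Mccc1 (0.11), the isoleucine genes Acadsb (0.12), Acat1 (0.099), Echs1 (0.075) and Hsd17b10 (0.062) and Dld (0.10) had higher means with EMPA, while the valine genes Aldh6a1 (0.16), Hibch (0.054), Acad8 (−0.13) and Abat (−0.21) were split. Leaving out R403Q-CD replicate 2 reduced the number of the 25 with a higher mean from 19 to 14 and their median from 0.099 to 0.012, with 3 at an unadjusted p under 0.05 (11.6% of all genes) and 0 called. Over both genotypes 16 of 25 had a higher mean with EMPA (47.6% of all genes) and 0 were called, with Slc43a2 at 0.25 (adjusted p = 0.116), Mmaa at 0.13 (adjusted p = 0.137) and Acad8 at −0.15 (adjusted p = 0.189) past the unadjusted level (20.1%). The others named by the same rule lay between −0.19 for Slc7a5 and 0.13 for Mut, among them Acadsb (0.12), Slc7a8 (0.12), Aldh6a1 (0.13), Abat (−0.094), Acat1 (0.082), Pccb (−0.067), Mccc2 (0.059), Auh (0.052), Mccc1 (0.048), Hsd17b10 (0.032), Echs1 (−0.012), Hibch (−0.0086) and Dld (0.0064). Without R403Q-CD replicate 2, 11 of the 25 had a higher mean and Acad8 alone was called (−0.18, adjusted p = 0.0425, against 4.22% of all genes).

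**Figure D4:**
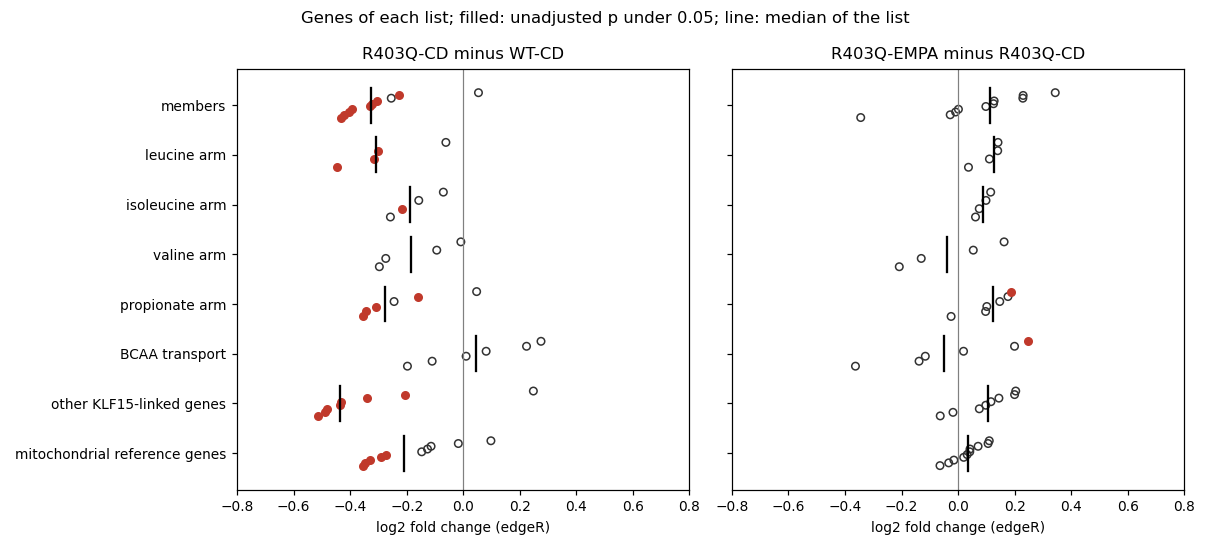
Log2 fold changes (edgeR) of each gene in 8 lists for R403Q-CD minus WT-CD (left) and R403Q-EMPA minus R403Q-CD (right), with filled points at an unadjusted p under 0.05 and a line at the median of each list. On the left the medians run from −0.44 for the other genes linked to KLF15 to 0.05 for transport, and on the right all list medians lie between −0.05 and 0.13.

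Of 8 other genes linked to KLF15, 7 had lower means in R403Q-CD, all 7 at an unadjusted p under 0.05 (8.45% of all genes were lower at that level), with 0 adjusted with edgeR, 2 with DESeq2 (4.77%) and a median of −0.44. The median was −0.32, 6 were at the unadjusted level (16.6% of all genes) and 1 passed adjustment (1.05%) without R403Q-CD replicate 2. Gpt2, the mitochondrial alanine transaminase gene, was closest to the threshold (−0.51, SE 0.12, adjusted p = 0.0562), followed by Slc2a4, the insulin-responsive glucose transporter gene (−0.44, adjusted p = 0.11), and Prodh, proline dehydrogenase (−0.49, adjusted p = 0.152). Over both diets 3 of the 8 fell (4.58% of all genes) and 5 were called without that mouse (12.6% of all genes in that fit), the 3 being Slc2a4 (−0.37, adjusted p = 0.0182), Kcnip2, a potassium channel subunit gene (−0.43, adjusted p = 0.0424), and Gpt2 (−0.33, adjusted p = 0.0437). With EMPA none of the 8 was at an unadjusted p under 0.05, in R403Q hearts (12.5% of all genes) or over both genotypes (20.1%), and DESeq2 called 0 (0.767% and 5.88%). In R403Q hearts the lowest p-values were those of Gpt2 (0.14), Gpt (0.20) and Kcnip2 (0.20, adjusted p = 0.726), and over both genotypes those of Kcnip2 (0.15), Got2 (−0.07) and Prodh (−0.07, adjusted p = 0.801).

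Glucocorticoid-responsive and clock genes were listed because Klf15 is known to respond to both signals. In R403Q-CD against WT-CD 0 of 8 glucocorticoid-responsive genes passed adjustment, with 2 lower and 2 higher at an unadjusted p under 0.05 (19.6% of all genes in either direction). Zbtb16 was at −0.52, Errfi1 at 0.52 and Tsc22d3 at 0.27. Among 14 clock genes 0 passed with edgeR and 1 with DESeq2, and 2 were lower at the unadjusted level, Hlf at −0.51 (adjusted p = 0.0736) and Cry1 at −0.20, and Tef was at −0.20 (adjusted p = 0.295). Over both diets 2 of the 8 glucocorticoid-responsive genes changed in R403Q hearts (Zbtb16 fell, −0.54, adjusted p = 0.0147, and Tsc22d3 rose, 0.30, adjusted p = 0.0279), as did 1 of the 14 clock genes (Hlf fell, −0.41, adjusted p = 0.0327), against 10.9% of all genes. With EMPA over both genotypes 6 of the 14 clock genes passed, against 2.91% of all genes. Arntl rose (1.70, SE 0.385, adjusted p = 0.0244) with Clock (0.36, adjusted p = 0.0411), while Ciart (−1.43, adjusted p = 0.00698), Dbp (−1.02, adjusted p = 0.0289), Hlf (−0.46, adjusted p = 0.0422) and Nr1d1 (−0.62, adjusted p = 0.0436) fell. Leaving out R403Q-CD replicate 2 gave 9 calls among the 14 (4.22% of all genes). Of the 8 glucocorticoid-responsive genes Tsc22d3 (−0.43, adjusted p = 0.012) and Per1 (−0.34, adjusted p = 0.0354) fell, and Errfi1 was at −0.36 (adjusted p = 0.136). In R403Q hearts alone 0 of these genes passed with EMPA in edgeR and 2 clock genes in DESeq2, while 12 clock and 4 glucocorticoid-responsive genes were at an unadjusted p under 0.05 (12.5% of all genes). The lowest p-values were those of Ciart (−1.38, adjusted p = 0.117), Per2 (−0.53) and Nr1d1 (−0.85) among the clock genes and of Tsc22d3 (−0.41, adjusted p = 0.23), Per1 (−0.32) and Errfi1 (−0.56) among the others. The hour of tissue collection was not given in the sources used here, and its part was not tested.

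The last question was whether Klf15 and the other 9 genes varied together over the 21 mice. Over all mice Pearson's r of log2 CPM with Klf15 lay between 0.50 (Ppm1k) and 0.67 (Ivd) for 8 genes, all past a Benjamini-Hochberg adjusted p of 0.05 over the 9 pairs (two-sided permutation, 100000 resamples), while Bcat1 gave −0.15 (permutation p = 0.52). These permutations moved mice freely between the 4 groups, so that differences between group means enter these p-values. Among 17308 other genes the 8 ranked by r between 235 (Ivd) and 1608 (Ppm1k). For Ivd r was 0.67 (permutation p = 0.00022, adjusted p = 0.00099), with a rho of 0.72 (permutation p = 0.00032, adjusted p = 0.00153). For Bckdk r was 0.67 (permutation p = 0.00085, adjusted p = 0.00191), with a rho of 0.63 (permutation p = 0.00266, adjusted p = 0.00598). For Bckdha r was 0.66 (permutation p = 5e-05, adjusted p = 0.00045), with a rho of 0.72 (permutation p = 0.00034, adjusted p = 0.00153). By rho, 6 of 9 pairs passed, with Dbt (0.45, adjusted p = 0.0521) and Ppm1k (0.44, adjusted p = 0.0549) just short. Without the 2 mice farthest from the median of Klf15 (R403Q-CD replicate 2 and WT-EMPA replicate 2) r was 0.62 for Ivd, 0.67 for Bckdk, 0.72 for Bckdha, 0.32 for Ppm1k and 0.36 for Dbt.

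Within groups no relation passed the threshold. With the mean of each group removed and the permutation kept within groups, 0 of 9 pairs passed, the highest r being 0.51 for Ivd (permutation p = 0.0112, adjusted p = 0.0937), with a rho of 0.52 (permutation p = 0.0283, adjusted p = 0.255). Without R403Q-CD replicate 2 and R403Q-EMPA replicate 4, the 2 mice farthest from the median, r for Ivd was 0.29, and the 9 values lay between −0.08 and 0.29.

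**Figure D5:**
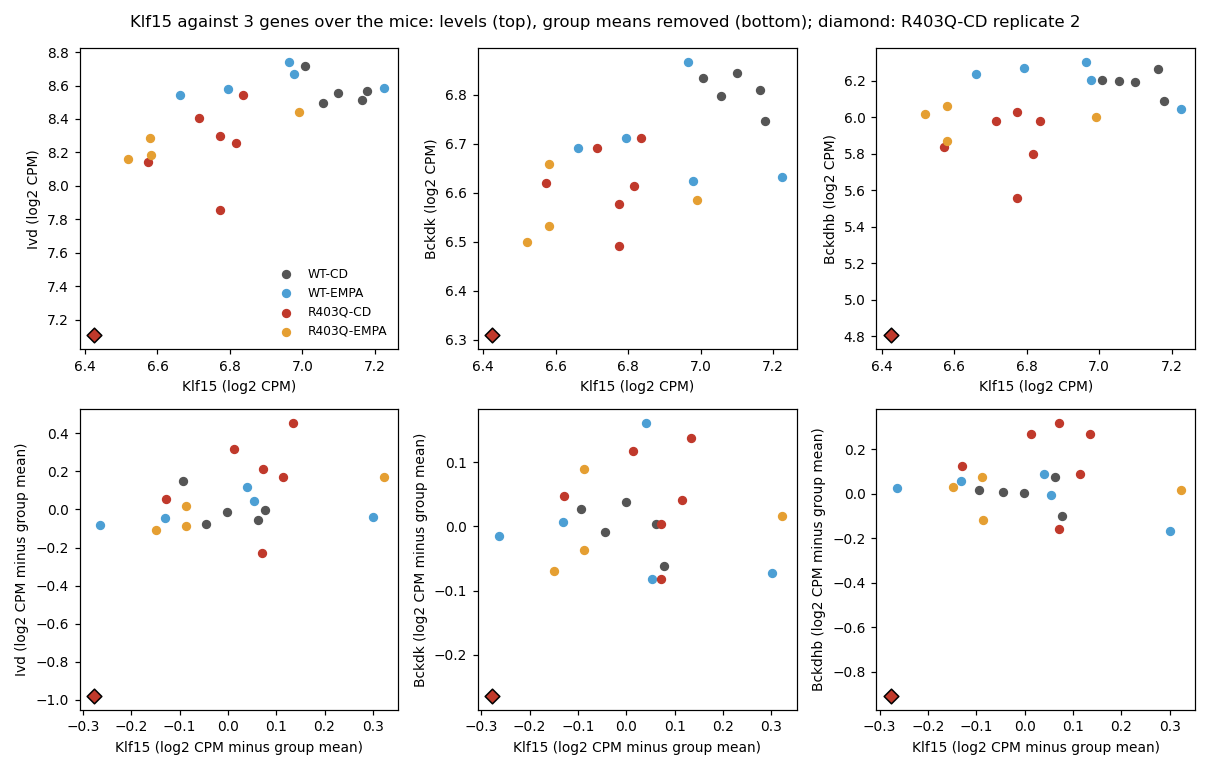
Log2 CPM of Klf15 (x axis) against that of Ivd, Bckdk and Bckdhb (y axis) in the 21 mice, as measured (top) and with group means removed (bottom), coloured by group. In the top row all 5 WT-CD mice lie to the right of all R403Q mice, while WT-EMPA mice lie on both sides, and in the bottom row the diamond, R403Q-CD replicate 2, stands alone at the lower left.

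The genes whose levels followed Klf15 most closely over the 21 mice, among 17308 others, did not include the other 9 genes. By Pearson's r of log2 CPM they were Max (0.90), Klhl38 (0.88), Atp10d (0.85), Sema6c (0.84) and the antisense gene Gm7628 (0.84), which had a mean of 0.545 CPM. With group means removed they were Klhl38 (0.86), Wbp1l (0.83), Pik3ip1 (0.83), Hdac4 (0.83) and Map3k4 (0.81). Of the 9 other genes Ivd came nearest, at rank 235 without and 1170 with removal of the group means. This is a description of likeness with no test, over mice that belong to the same groups, and the levels of all genes in a mouse come from its single library.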

How the data were processed

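The authors extracted RNA from frozen left ventricle, selected polyadenylated RNA, sequenced read pairs, aligned them to mm10 with STAR 2.6.0c and made the deposited counts with featureCounts (Subread 1.6.2) on Ensembl genes from uniquely aligned, same-strand proper pairs, without mitochondrial genes. Per the file headers, a second deposited table held log2 values, variance-stabilised by DESeq2 1.32.0, which served an alternative only. Here groups came from the labels, and GENCODE M21 (GRCm38) gave symbols, positions and exon lengths. Counts were fitted with edgeR 4.0.16 in R 4.3.3 (filterByExpr with a minimum count of 10, TMM, quasi-likelihood F test, Benjamini-Hochberg over all tested genes, threshold 0.05). WT-CD, R403Q-CD and R403Q-EMPA were fitted together (17025 genes) for contrasts within these groups, and all 4 groups (17309 genes) for contrasts with WT-EMPA, over both diets or genotypes, and the interaction. Intervals for fold changes are 95% t intervals on the degrees of freedom of that fit. Levels are TMM-scaled CPM and log2 CPM has a prior count of 2. Scripts were tested on simulated data.

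The 10 genes and the lists were chosen with earlier results of these data known. Of the other lists, the 3 genes with the smallest p per list in R403Q-CD against WT-CD, R403Q-EMPA against R403Q-CD and EMPA against CD (all of a list of at most 4), and any with an adjusted p under 0.05, were named, and for Klf15 the 5 genes with the highest r. Genes of other lists named for R403Q against WT over both diets, and marker genes, were chosen after their values were seen. Alternatives were DESeq2 1.42.0 with Wald tests, no filter on low counts, library size alone, limma 3.58.1 on the variance-stabilised values, fits of 2 or 4 groups, cage as a factor and leaving out each mouse. Libraries of a group differed by more than counting noise (chi-square per degree of freedom at least 8.49). One gene that this rule names is not reported here. Protein sequences were not used here.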

Additional observations from a re-analysis of the deposited data

Results flagged for a closer look

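Of 40 sets of values (10 genes in 4 groups), 6 held a mouse set apart from the rest of its group by Dixon's criterion at the 95% level, which chance meets in about 1 set of 20. In R403Q-CD replicate 2, Bcat1 was at 5.82 CPM, with the next mouse at 2.31 CPM, and Bckdha at 123 CPM, with the next at 226 CPM. This is the mouse with the high fibroblast and atrial marker levels, whose part in these values was not tested.

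In R403Q-EMPA replicate 4, Klf15 was at 127 CPM while the other 3 mice of the group lay between 91.7 and 95.7 CPM. In R403Q-EMPA replicate 2, Bcat1 was at 2.91 CPM, above 1.316 CPM in the next mouse. In WT-CD replicate 4, Bcat2 was at 224.4 CPM, above 202 CPM, and Dbt at 139 CPM, above 121 CPM.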

How the results depend on the processing

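For R403Q-CD against WT-CD the count of called genes was 1, 2 with DESeq2, 0 with library size alone, 0 with cage as a factor, and between 0 and 2 when each mouse of the fit was left out, with 2 without R403Q-CD replicate 2 (Klf15 and Bckdhb) or R403Q-CD replicate 3 (Klf15 and Bckdk), 1 without R403Q-EMPA replicate 4 and 0 without any other mouse. The lost call is that of Klf15, whose fold change stayed negative under every alternative run (−0.33 with library size alone to −0.43 with cage as a factor). Of all genes 0.576% were called with all mice, 4.77% with DESeq2 and 0.115% with cage as a factor, and library size alone called 147 of 17025. With a mouse left out, the calls among all genes ran from 14 of 16991 (without WT-CD replicate 1) to 630 of 16992 (without R403Q-CD replicate 3). Over both diets the count was 4, and between 2 and 9 when each of the 21 mice was left out, 9 being without R403Q-CD replicate 2 and 2 without WT-CD replicate 1, 3 or 4, WT-EMPA replicate 1 or 5, or R403Q-EMPA replicate 1, 2 or 3. In that comparison 10.9% of all genes were called, 12.6% without R403Q-CD replicate 2, and between 5.46% and 15.9% without another mouse. The counts for EMPA, for the interaction and for R403Q-EMPA against WT-EMPA were 0 under every alternative run. The relations of Klf15 past the threshold dropped from 8 to 0 with group means removed and were 8 on variance-stabilised values. The causes were not tested. The numbers of replicates are in the order of the samples and pair no mice, so cage took the place of a block.

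Among the single fold changes 41 alternative values turned in sign. Bcat1 in R403Q-CD against WT-CD was −0.072 with limma. Bckdha in R403Q-EMPA against R403Q-CD was −0.0032 with DESeq2, −0.000958 with no filter, −0.011 with library size alone and −0.000418 in a fit of 2 groups, and over both genotypes with EMPA it was 0.0037 with limma. Hibadh in WT-EMPA against WT-CD was −0.0054 with no filter, −0.0093 with library size alone and −0.0073 in a fit of 2 groups. When each mouse was left out, Bcat1 ran from −0.45 to 0.24 in R403Q-CD against WT-CD, from −0.093 to 0.26 over both diets, from −0.75 to 0.16 in R403Q-EMPA against R403Q-CD, from −0.13 to 0.41 in R403Q-EMPA against WT-EMPA and from −0.18 to 0.72 in the interaction. Bckdha ran from −0.077 to 0.0084 with EMPA over both genotypes, from −0.11 to 0.051 in R403Q-EMPA against R403Q-CD and from −0.083 to 0.085 in the interaction. In R403Q-EMPA against R403Q-CD, Klf15 ran from −0.15 to 0.023 and Bckdk from −0.0497 to 0.0145. In WT-EMPA against WT-CD, Bckdhb ran from −0.0017 to 0.063 and Hibadh from −0.032 to 0.031. In the interaction, Bcat2 ran from −0.0096 to 0.14 and Ivd from −0.049 to 0.15.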
